A study of Homo sapiens and Mus musculus with 20 samples.

Results

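The zinc finger genes of human chromosome 19 were followed in open-chromatin maps of SW480, an established human colorectal adenocarcinoma cell line of colon epithelial origin. Members were all protein-coding genes of the GENCODE release 44 annotation (build GRCh38) that lie on chromosome 19 and carry a symbol of ZNF followed by digits. The rule found 240 genes among 20046 protein-coding genes, and it used no measured value. Another 236 ZNF genes lie on other chromosomes, and 1236 other protein-coding genes lie on chromosome 19. Taken in order along the chromosome, with a stretch of over 500 kb without a member ending a cluster, 228 members fell into 10 clusters of at least 5 members each and 12 lay outside. Clusters are named here by their first and last member.

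Zinc finger proteins of this family bind DNA through rows of repeated finger units, and in most members the whole row is encoded by the last exon. Many members also carry a KRAB domain, which recruits the corepressor TRIM28 and, through it, the histone methyltransferase SETDB1, HP1 proteins and histone deacetylases, so that H3K9me3 is laid down at the bound site. Many bound sites are transposable elements. The family grew by tandem duplication, which is why its genes lie in clusters, and the 3' ends of many of its genes are themselves covered by H3K9me3 in human cells.

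Open chromatin was mapped by ATAC-seq, where a transposase cuts accessible DNA and adds sequencing adapters. In one experiment 3 SW480 libraries came from cells given 10 mM sodium propionate (NaPr) for 12-16 h and 3 from untreated cells, and in the other 3 came from cells given 1 mM sodium butyrate (NaBu) for the same range of hours and 3 from untreated cells of their own. These doses are those of the sample labels, and the series' design text gives them in the opposite order. Both are bacterial products of fibre fermentation in the gut, and butyrate is a known inhibitor of histone deacetylases. All 12 libraries came from a single unmodified cell line grown with 10 % serum, and nothing in the labels says whether replicates were separate cultures, so p-values measure the spread between these libraries, which may be technical. The study's comparison was treated against untreated cells within each experiment. The lists held 108442 to 144398 distinct peak intervals a library, the background pileup recovered from them ran from 0.936 to 3.03 tags, and the lowest listed -log10 p ran from 3.37 to 6.53 in the NaPr experiment and from 7.25 to 9.38 in the NaBu experiment, so a gene without a peak is a gene below that library's own limit. A promoter peak was present in all 12 libraries at 10 of 12 colon epithelial markers, with KRT20 in 4 libraries and CDX1 in none. Among markers of other cells, it was also present in all 12 libraries at COL1A1, PECAM1, ACTA2 and S100B, in some libraries at LYZ, DCN and VWF and in none at PTPRC, CD3E and COL3A1. A promoter peak is not a measure of expression.

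The sequences below belong to promoters whose values are described further on, among them ZNF274 for its role at other zinc finger genes, and they show how alike members of one cluster can be. The RefSeq table for GRCh38 held a promoter window of 300 bases, from 250 before to 50 after the start, for 210 of the 240 members. Printed 5' to 3' are stretches of up to 150 bases before the start that hold no exon, with GGGCGG (the core of an SP1 site) and CCGGAAG (the core of an ETS site) in capitals, read on either strand.
ZNF93, chr19:19900763-19900912, plus strand: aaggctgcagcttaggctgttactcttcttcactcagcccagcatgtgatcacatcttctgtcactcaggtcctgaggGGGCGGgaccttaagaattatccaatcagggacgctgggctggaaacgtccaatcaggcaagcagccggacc
ZNF681, chr19:23758892-23759041, minus strand: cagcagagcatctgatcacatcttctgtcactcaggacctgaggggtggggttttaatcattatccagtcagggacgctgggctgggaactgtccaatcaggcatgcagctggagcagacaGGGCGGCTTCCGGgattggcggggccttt
ZNF556, chr19:2867185-2867334, plus strand: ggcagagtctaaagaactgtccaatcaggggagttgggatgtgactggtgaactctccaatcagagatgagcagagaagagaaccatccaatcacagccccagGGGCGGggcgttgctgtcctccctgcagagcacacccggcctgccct
ZNF865, chr19:55605497-55605646, plus strand: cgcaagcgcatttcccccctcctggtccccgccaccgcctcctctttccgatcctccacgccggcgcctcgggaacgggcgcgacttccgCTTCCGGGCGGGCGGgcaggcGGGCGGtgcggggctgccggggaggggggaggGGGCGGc
ZNF784, chr19:55624567-55624716, minus strand: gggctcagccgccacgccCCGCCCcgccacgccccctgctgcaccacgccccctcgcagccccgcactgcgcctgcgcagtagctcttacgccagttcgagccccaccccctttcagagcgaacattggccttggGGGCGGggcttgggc
ZNF554, chr19:2819718-2819867, plus strand: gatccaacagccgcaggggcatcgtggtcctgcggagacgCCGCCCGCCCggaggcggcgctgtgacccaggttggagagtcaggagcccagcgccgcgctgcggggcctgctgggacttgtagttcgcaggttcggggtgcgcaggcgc
ZNF274, chr19:58182879-58183028, plus strand: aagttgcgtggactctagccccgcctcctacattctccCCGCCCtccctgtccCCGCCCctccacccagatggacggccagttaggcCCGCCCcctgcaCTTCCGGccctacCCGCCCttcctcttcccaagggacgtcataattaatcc
ZNF93 and ZNF681 lie far apart in the ZNF101-ZNF254 cluster, and both stretches hold the run tgatcacatcttctgtcactcagg. Of all RefSeq promoter windows, 8 held that 24-base run, and all 8 belonged to this cluster (ZNF85, ZNF90, ZNF91, ZNF93, ZNF208, ZNF675, ZNF681 and ZNF714). Among the 406 pairs of windows within the ZNF101-ZNF254 cluster, 46.3% shared more than 10% of their 12-base words, against 6.45% of pairs in ZNF175-ZNF331, 3.99% in ZNF653-ZNF791, 0.0% in ZNF565-ZNF573 and 0.0% of 19422 pairs from different clusters.

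CCGGAAG occurred in 44.3% of member windows, in 37.1% of windows of ZNF genes elsewhere, in 13.5% of windows of other chromosome 19 genes and in 14.4% of all 15345 protein-coding windows. GGGCGG occurred in 69.5% of member windows and 59.2% of all windows. Its share was 66.1% for other chromosome 19 genes, near that of members, and 60.3% for ZNF genes elsewhere. The strings for YY1 (AAGATGGC, 6.19% against 3.97%), NRF1 (GCGCATGC, 3.33% against 4.25%), the cyclic AMP response element (TGACGTCA, 3.33% against 2.64%) and AP-1 (TGANTCA, 6.67% against 5.74%) occurred at nearer shares. The clusters differed among themselves. The ETS string was in 72.4% of windows of ZNF101-ZNF254, 65.8% of ZNF264-ZNF446 and 62.5% of ZNF175-ZNF331, but in 8.33% of ZNF653-ZNF791, where the SP1 string stood in 95.8%. The CRE string was found in 5 of 12 windows of ZNF414-ZNF846. All strings were sought on both strands, GGGCGG and CCGGAAG can overlap, and a match is a description of letters and not of a bound factor.

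Most members had an open promoter in these cells. A promoter peak, meaning a peak within 1 kb of any transcript start of the gene, was present in all 12 libraries at 188 members (78.3%), in 1 to 11 libraries at 20 and in none at 32 (13.3%). The share with a peak in all 12 libraries was 72.1% of all protein-coding genes, 72.1% of other chromosome 19 genes and 88.1% of ZNF genes elsewhere, and the share with none was 14.7%, 10.0% and 5.08%. In single libraries 188 to 200 members (78.3 to 83.3%) had a promoter peak, against 76.6 to 79.3% of all genes. Of the 20 members between these extremes, 9 had a peak in 1 library, ZNF43, ZNF208, ZNF382, ZNF568, ZNF471, ZNF264, ZNF550, ZNF671 and ZNF135.

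**Figure D1:**
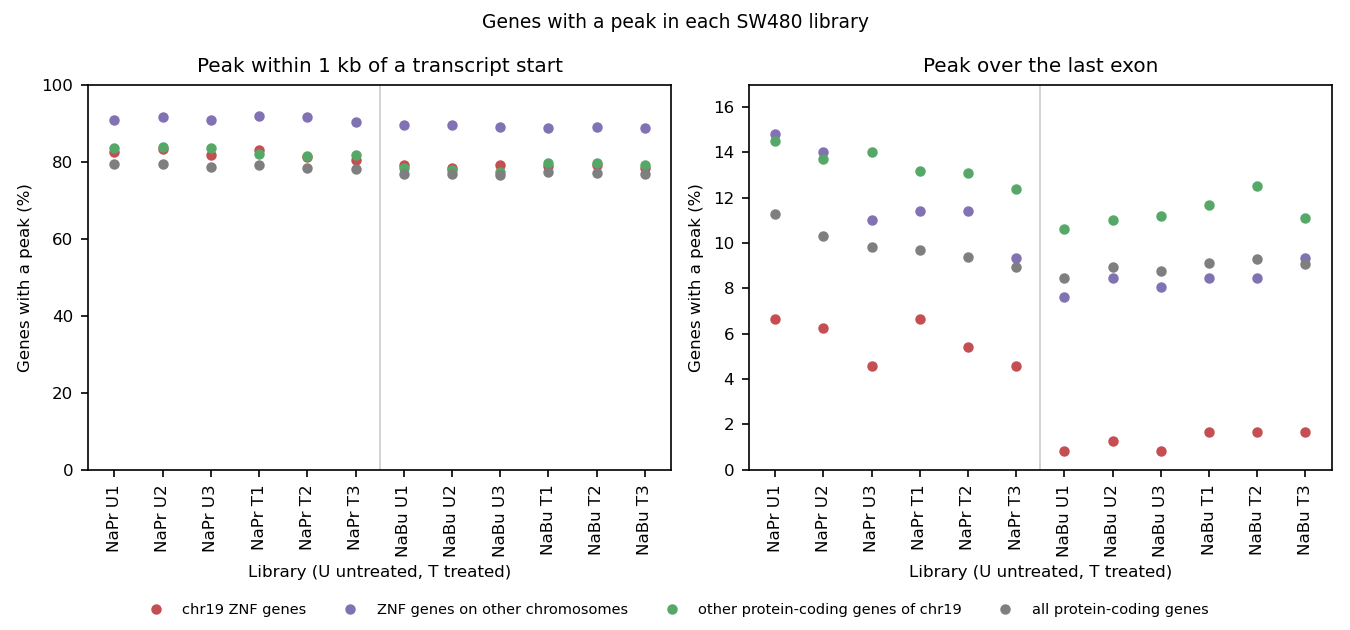
Share of genes with a peak (%), by library, for the 240 chromosome 19 ZNF genes, 236 ZNF genes elsewhere, 1236 other chromosome 19 genes and all 20046 protein-coding genes; each point is 1 library, and U and T are untreated and treated. At promoters the members sit between 78.3 and 83.3%, below the 88.6 to 91.9% of ZNF genes elsewhere, while over last exons they sit between 0.833 and 6.67%, below the other lists in all 12 libraries.

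All 32 members without a promoter peak lay in clusters, and their number differed between clusters. ZNF101-ZNF254, a pericentromeric cluster that expanded in primates, held 12 of them among its 37 members (ZNF90, ZNF626, ZNF85, ZNF257, ZNF676, ZNF729, ZNF98, ZNF99, ZNF723, ZNF728, ZNF730 and ZNF726). ZNF175-ZNF331 held 7 among 39 (ZNF880, ZNF528, ZNF534, ZNF578, ZNF347, ZNF665 and ZNF677) and ZNF264-ZNF446 held 5 among 41 (ZNF304, ZNF154, ZNF814, ZNF418 and ZNF256). The remaining 8 were ZNF177, ZNF560, ZNF625, ZNF829, ZNF793, ZNF285, ZNF229 and ZNF582. The ETS string stood in 61.5% of the 26 windows of such members and in 40.6% of the 165 windows of members with a peak in all 12 libraries, with a median GC content of 56% and 61%.

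Among members often reported as methylated and silent in tumours, ZNF154 and ZNF582 had no promoter peak in any library, ZNF382 and ZNF671 had one in 1 library and ZNF667 had one in 2 libraries. ZNF331, also reported as silenced in gastrointestinal tumours, had one in all 12. ZNF304 had none, and ZNF568, whose mouse counterpart represses a placental transcript of Igf2, had one in 1 library. DNA methylation was not measured in these libraries. Of 16 members taken for their published roles, the other 8 (ZNF91, ZNF93, ZNF274, ZNF350, ZNF160, ZNF175, ZNF558 and ZNF8) had a promoter peak in all 12 libraries.

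To follow promoters through treatment, peaks of the 6 libraries of an experiment were merged into regions and each region was given its percentile rank in each library, from 0 for no peak to 100 for the highest -log10 p. A change is the mean rank in treated minus that in untreated libraries, in percentile points, so it says where a region moved relative to other regions and not by what factor its accessibility changed. A region was called at an adjusted p below 0.05 in limma, with Benjamini-Hochberg adjustment over all regions of the experiment. The lead region of a gene is the promoter region with the highest mean rank over the 6 libraries.

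Within clusters the lead promoters spanned a wide range of ranks. The extremes given here are those among members with a lead region in both experiments. Members without one in both are left out, though some ranked lower. With NaPr, mean ranks in untreated and treated libraries were 10.4 and 40.9 at ZNF737 of ZNF101-ZNF254. They were 9.72 and 45.6 at ZNF439 of ZNF653-ZNF791, and 43.7 and 26.9 at ZNF404 of ZNF575-ZNF180. Over the 12 libraries ZNF8 stood highest in ZNF264-ZNF446 at a mean rank of 99.8, with ZNF549 lowest at 57.6. In ZNF101-ZNF254 the extremes were ZNF714 at 97.7 and ZNF492 at 46.1, in ZNF175-ZNF331 ZNF761 at 99.3 and ZNF610 at 62.3, and in ZNF414-ZNF846 ZNF558 (a repressor of the mitophagy gene SPATA18) at 98.1 and ZNF426 at 56.8. The range was narrower in ZNF302-ZNF792, from ZNF599 at 91.8 to ZNF302 at 98.3, and in ZNF565-ZNF573, from ZNF461 at 88.8 to ZNF527 at 99.6. In the other clusters the extremes were ZNF556 at 72.6 and ZNF77 at 92.7, ZNF433 at 78.1 and ZNF564 at 98.5, ZNF234 at 82.7 and ZNF180 at 97.7, and ZNF579 at 79.9 and ZNF444 at 98.6.

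In the NaPr experiment more member promoters were called higher than lower, whereas among promoters in general more were called lower. Of 247 tested member promoter regions, which covered 197 genes, 21 rose and 4 fell. Those are 8.5% and 1.62% of the regions, against a background of 2.34% higher and 7.77% lower among the 26179 tested regions at any protein-coding start, and 8.36% called in either direction among all 129351 regions. The median change of the 191 member lead regions was 0.77 percentile points, and 66.5% of them lay above 0. The same median was -0.76 for all genes (35.3% above 0), -0.74 for ZNF genes on other chromosomes (31.8%) and -0.33 for other genes of chromosome 19 (45.1%).

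The calls rested on every library of the NaPr experiment. Without untreated replicate 1, 2 or 3 the count of called member regions was 5, 2 and 2, and without treated replicate 1, 2 or 3 it was 0 in each case, where limma called 0 regions at any protein-coding start and 57 to 64 member regions still had an unadjusted p under 0.05, against 76 with all 6 libraries. The median change of the tested member regions stayed between 0.70 and 0.89 in those 6 fits, and that of all promoter regions between -1.43 and -1.16. How many regions were called in each direction also depended on the scale. Ranked by fold enrichment, 1 member region was called higher and 2 lower, with a lead median of -0.04 for members and -1.18 for all genes. The tag pileup at the summit, recovered from fold and -log10 p and scaled by background, gave 3 higher and 0 lower, and the same tags scaled by the median of all regions gave 25 higher and 33 lower, with lead medians of 0.09 and -0.04 on the log2 scale for members and -0.12 and -0.25 for all genes. Under these scales and under ranks taken among peaks alone, 70.7 to 83.2% of member lead regions lay above the median of all lead regions, and this comparison of scales was chosen after the data had been seen.

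**Figure D2:**
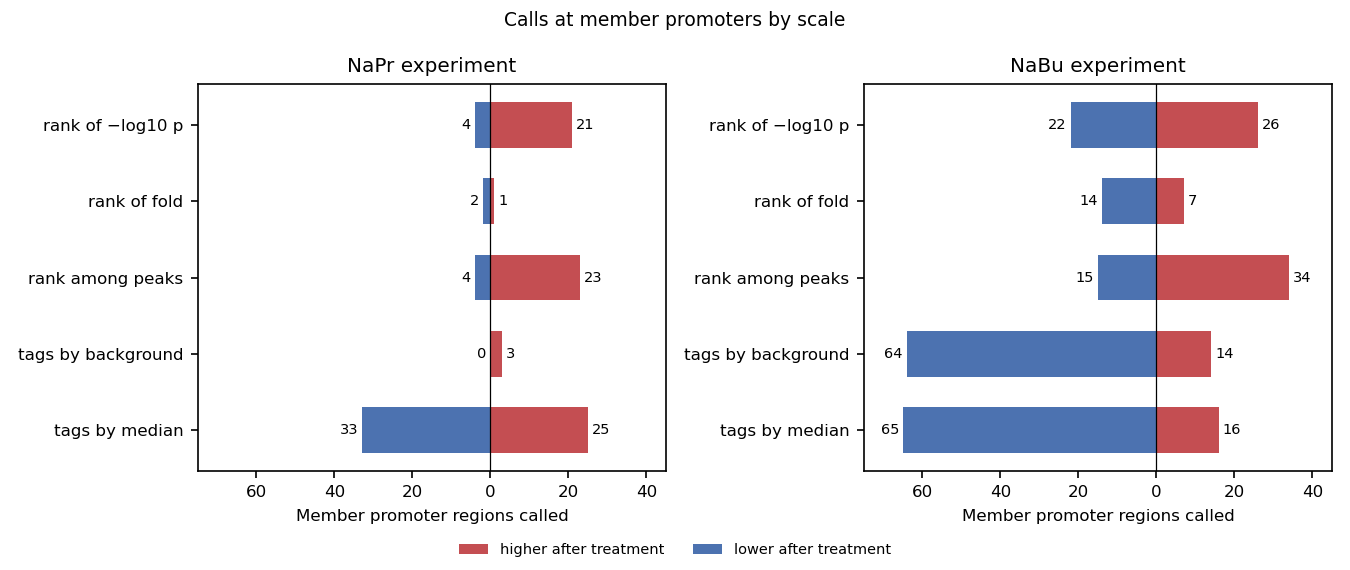
Number of member promoter regions called higher (red, to the right) and lower (blue, to the left) after treatment under each of 5 scales, for the NaPr and NaBu experiments. By rank of -log10 p there were 21 higher and 4 lower with NaPr and 26 higher and 22 lower with NaBu, whereas by tags scaled to the median the counts were 25 and 33, and 16 and 65.

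The largest called rise of a lead promoter after NaPr was at ZNF93, a KRAB zinc finger gene whose protein represses LINE-1 elements. Its promoter region, chr19:19900586-19901536, had ranks of 56.5, 66.0 and 70.4 in the untreated and 78.4, 85.0 and 80.3 in the treated libraries. The groups did not overlap, and the change was 16.95 percentile points (SE 3.83, adjusted p = 0.0301). Groups did not overlap at 82 of the 247 tested member promoter regions, and the genes named here were picked among the called ones. The fold enrichment of its peak was 5.68, 7.45 and 11.6 in untreated and 12.4, 17.4 and 18 in treated libraries. The sequence printed above for ZNF93 lies in this region.

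ZNF93 was 1 of 6 members of the ZNF101-ZNF254 cluster with a called rise, among 24 tested regions, and none of its regions fell. ZNF681 went from 77.2, 80.0 and 74.3 to 84.9, 86.2 and 84.4 (change 7.95, SE 1.87, adjusted p = 0.0338). ZNF675, whose protein is known as an inhibitor of TRAF6 signalling, went from 89.1, 90.9 and 89.6 to 94.7, 93.8 and 94.6 (change 4.50, SE 0.83, adjusted p = 0.0166). In both, every treated library ranked above every untreated one. ZNF91, the KRAB protein that represses SVA elements in primates, went from 93.6, 93.4 and 94.8 to 96.8, 96.3 and 96.4 (change 2.52, SE 0.663, adjusted p = 0.0471), but its change ranked by fold enrichment was -0.02. ZNF493 (change 3.40) and ZNF254 (3.14) completed the group. ZNF91, ZNF93, ZNF675 and ZNF681 are among the 8 genes whose promoters share the 24-base run, which was itself read from ZNF93 and ZNF681, genes picked for their rise. Of the other 4, ZNF85 and ZNF90 had no promoter peak, ZNF208 had one in 1 library, and ZNF714 went from a mean rank of 96.6 to 97.2 (change 0.59, SE 0.78, adjusted p = 0.678).

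Outside that cluster ZNF491 rose from 83.1, 83.2 and 87.4 to 93.9, 92.1 and 93.6, a change of 8.63 (SE 1.35, adjusted p = 0.0103). ZNF556 rose from 90.8, 93.5 and 91.4 to 97.3, 98.7 and 98.1, a change of 6.15 (SE 0.84, adjusted p = 0.00706). ZNF331, an imprinted gene, rose from 86.1, 90.8 and 88.0 to 94.1, 92.5 and 92.3, a change of 4.68 (SE 1.25, adjusted p = 0.0487). In each of the 3, the lowest treated library ranked above the highest untreated one. Further called rises of lead regions included ZNF790 (4.35), the region shared by ZNF432 and ZNF841 (4.22) and the region shared by ZNF790 and ZNF345 (3.92). A flank of ZNF274, chr19:58181992-58182198, had no peak in the untreated libraries and ranks of 72, 76.6 and 64.9 in the treated ones, while the lead region of that gene changed by 2.02 (adjusted p = 0.144). ZNF274 is the member known to bind the 3' exons of other zinc finger genes and to recruit SETDB1 there.

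The 4 falls after NaPr lay in one cluster, ZNF628-ZNF835, among its 20 tested regions. That stretch of the chromosome holds several zinc finger genes without a KRAB domain, and all 4 genes that fell are of that kind. ZNF865 fell from 89.1, 94.8 and 91.8 to 83.1, 86.2 and 87.0, a change of -6.52 (SE 1.60, adjusted p = 0.0383). ZNF784 fell from 94.2, 94.8 and 94.4 to 89.6, 89.8 and 86.0, a change of -6.04 (SE 1.10, adjusted p = 0.0158). The other 2 were short side regions of ZNF580 and ZNF628, which had a peak in all 3 untreated libraries and in no treated one. The windows of ZNF865 and ZNF784 had a median GC content of 70.5%, against 57.7% for the 17 genes whose lead region rose. Over all windows of ZNF628-ZNF835 the median was 68.2%. No called rise lay in that cluster, so cluster and direction were not separated here.

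**Figure D3:**
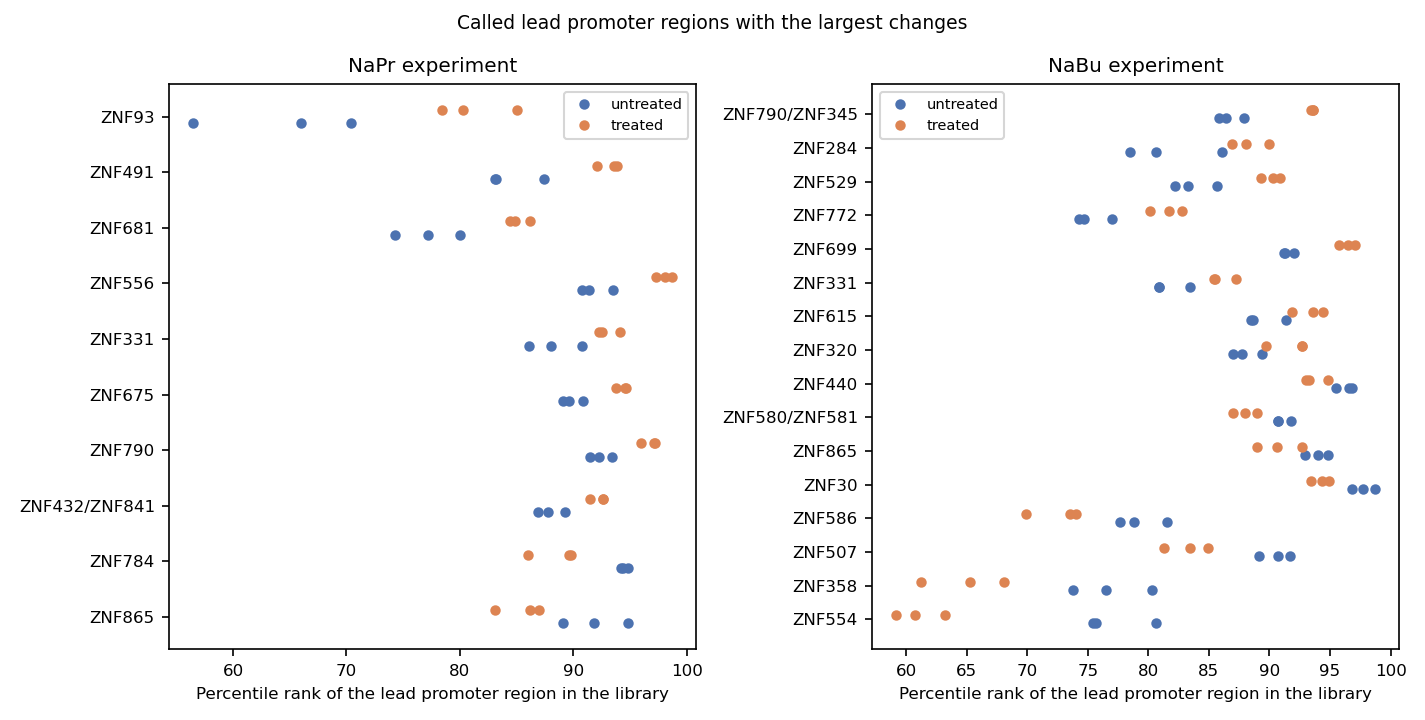
Percentile rank (100 is the highest -log10 p) of called lead promoter regions with the largest changes, 1 point a library, untreated in blue and treated in orange, for NaPr (left) and NaBu (right). ZNF93 moves from 56.5 to 70.4 in untreated to 78.4 to 85.0 in treated libraries, and ZNF554 moves down from 75.4 to 80.6 to 59.2 to 63.2 with NaBu.

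Other members taken for their roles were not called after NaPr. ZNF350, a partner of BRCA1 also known as ZBRK1, had mean ranks of 74.0 and 81.7, a change of 7.67 (SE 2.56, adjusted p = 0.0919). ZNF175 changed by 2.94 (adjusted p = 0.41), ZNF160, reported to repress TLR4 in intestinal epithelial cells, by 0.53 (adjusted p = 0.72), ZNF558 by 0.62 (adjusted p = 0.53) and ZNF8 by -0.08 (adjusted p = 0.944).

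In the NaBu experiment calls at member promoters were split between the directions. Of 233 tested regions, covering 190 genes, 26 rose and 22 fell, which is 11.2% and 9.44%. The background was 10.4% higher and 27.2% lower among 27405 regions at protein-coding starts, and 36.9% called in either direction among all 127305 regions. The share that rose was therefore near the background, and the share that fell was below it. The median change of 184 member lead regions was 0.04, with 51.6% above 0, against -0.83 and 36.8% for all genes, -0.86 for ZNF genes elsewhere and -0.06 for other chromosome 19 genes. By fold enrichment the split was 7 higher and 14 lower, among peaks alone 34 and 15, and by tags scaled to background or to the median 14 and 64, and 16 and 65. Between 52.2 and 76.6% of member lead regions lay above the median of all lead regions over the 5 scales, the lowest share being by fold enrichment. Without untreated replicate 2 the called count was 30 and without untreated replicate 3 it was 31, against 48 with all libraries.

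The largest called rise of a lead region after NaBu was at chr19:36849887-36851505, a promoter shared by ZNF790 and ZNF345. Its ranks were 85.8, 87.9 and 86.4 in untreated and 93.6, 93.4 and 93.6 in treated libraries, a change of 6.83 (SE 0.751, adjusted p = 0.000832). ZNF529, in the same cluster, went from 85.7, 82.2 and 83.3 to 90.9, 90.3 and 89.3 (change 6.47, SE 1.1, adjusted p = 0.00398). ZNF699, a KRAB gene of the ZNF414-ZNF846 cluster, went from 91.2, 92.0 and 91.3 to 95.7, 96.5 and 97.1 (change 4.94, SE 0.568, adjusted p = 0.000952). All 3 had groups that did not overlap, as had 94 of the 233 tested member promoter regions. ZNF274 went from 95.1, 95.6 and 93.7 to 98.3, 98.1 and 97.7 (change 3.22, SE 0.585, adjusted p = 0.00502), and ZNF331 from 83.4, 80.9 and 80.9 to 85.5, 87.2 and 85.4 (change 4.30, SE 1.18, adjusted p = 0.0239). Ranked by fold enrichment these last 2 changes were -0.11 and -1.63. ZNF284 (6.57), ZNF772 (6.18), ZNF615 (3.83) and ZNF320 (3.66) also rose.

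Side regions rose as well. A region of ZNF414, chr19:8512160-8512539, had no peak in untreated libraries and ranks of 70.9, 71.7 and 61.0 in treated ones. The ZNF875 region chr19:37312239-37313036 went from 36.4, 43.3 and 40.6 to 66.7, 69.7 and 66.7, a change of 27.6 (SE 4.03, adjusted p = 0.00221). The groups of both were far apart, and in each gene another region held the higher mean rank.

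The largest called fall of a lead region was at ZNF554, a KRAB gene at the start of the first cluster. Its ranks were 75.4, 80.6 and 75.7 in untreated and 60.7, 59.2 and 63.2 in treated libraries, a change of -16.17 (SE 2.65, adjusted p = 0.00343), and its fold enrichment went from 15.4, 16.9 and 15.8 to 11.1, 10.7 and 11.8. The groups were apart on both measures. ZNF358, outside clusters, went from 80.3, 76.5 and 73.8 to 68.1, 61.2 and 65.3 (change -12.0, SE 2.83, adjusted p = 0.0135). ZNF507, also outside, went from 91.7, 89.1 and 90.7 to 84.9, 81.3 and 83.4 (change -7.29, SE 1.21, adjusted p = 0.00353). ZNF586 (-6.87), ZNF30 (-3.54), ZNF865 (-3.14), the region shared by ZNF580 and ZNF581 (-3.06) and ZNF440 (-2.60) followed. GGGCGG stood in all 15 RefSeq windows found for genes with a called lead fall and in 61.1% of the 18 found for genes with a called lead rise. It stood in 69.5% of all member windows and, with NaPr, in 76.5% of the 17 for genes with a called lead rise. The share differed by cluster, 30.4% in ZNF565-ZNF573 and 95.8% in ZNF653-ZNF791, and cluster and direction were not separated.

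Of the other role-based members, ZNF91 changed by 2.70 (SE 1.82, adjusted p = 0.263) and ZNF93 by -1.12 (SE 1.5, adjusted p = 0.581) after NaBu, with mean ranks of 87.5 and 90.2, and of 81.0 and 79.9. ZNF350 changed by 2.21 (adjusted p = 0.278), ZNF175 by 0.36 (adjusted p = 0.767), ZNF160 by -0.11 (adjusted p = 0.853), ZNF558 by -0.04 (adjusted p = 0.947) and ZNF8 by -0.01 (adjusted p = 0.984).

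**Figure D4:**
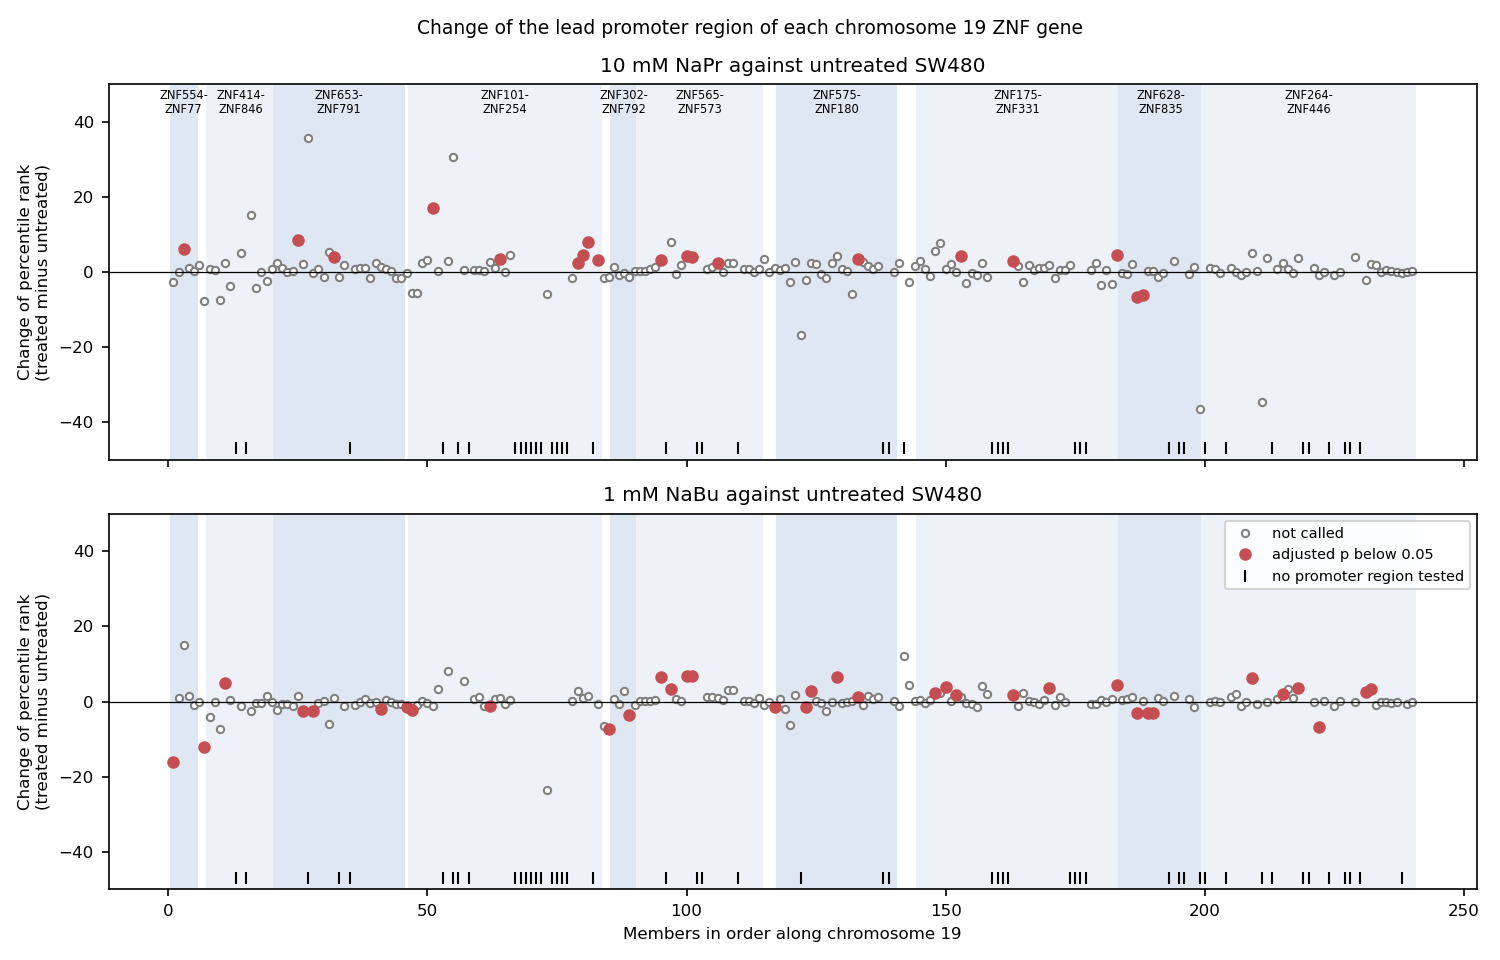
Change of percentile rank (treated minus untreated) of each member's lead promoter region, against the member's order along chromosome 19, with NaPr above and NaBu below; filled points are called, open points are not, ticks mark members without a tested promoter region and shaded bands are the 10 clusters. In ZNF565-ZNF573 16 of 17 lead regions lie above 0 with NaPr and 15 of 16 with NaBu, and the 2 filled points below 0 with NaPr are ZNF865 and ZNF784 in ZNF628-ZNF835.

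By cluster and by rank of -log10 p, ZNF101-ZNF254 had the highest median lead change with NaPr, 2.41. It was followed by ZNF565-ZNF573 at 1.22, ZNF653-ZNF791 at 1.02 and ZNF575-ZNF180 at 0.91. The lowest were ZNF628-ZNF835 at -0.39 and ZNF302-ZNF792 at -0.30. Called rises and falls were 6 and 0 of 24 tested regions in ZNF101-ZNF254 and 5 and 0 of 22 in ZNF565-ZNF573. They were 4 and 0 of 46 in ZNF175-ZNF331, 3 and 0 of 33 in ZNF653-ZNF791 and 0 and 4 of 20 in ZNF628-ZNF835. They were 1 and 0 in ZNF554-ZNF77 (of 6), ZNF575-ZNF180 (of 25) and ZNF264-ZNF446 (of 37). Over all protein-coding starts 2.34% of regions rose and 7.77% fell. Lead medians were 0.70 in ZNF175-ZNF331, 0.62 in ZNF414-ZNF846, 0.23 in ZNF264-ZNF446, 0.20 in ZNF554-ZNF77 and -0.04 for members outside clusters. Every median lay above that of all genes, -0.76, and by fold enrichment ZNF628-ZNF835 alone did not. The order also depended on the scale. By fold enrichment ZNF264-ZNF446 had the highest median, 0.71, and ZNF101-ZNF254 had -0.12. Of the 23 lead regions of ZNF101-ZNF254, 8 then lay above 0, against 18 by rank of -log10 p.

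With NaBu the order was another. Medians were 0.97 in ZNF554-ZNF77, 0.73 in ZNF565-ZNF573, 0.47 in ZNF628-ZNF835, 0.36 in ZNF175-ZNF331, 0.33 in ZNF101-ZNF254 and 0.12 in ZNF575-ZNF180, and they were -0.03 in ZNF264-ZNF446, -0.30 in ZNF414-ZNF846, -0.57 in ZNF653-ZNF791, -0.79 in ZNF302-ZNF792 and -1.02 outside clusters. Called rises and falls were 7 and 0 of 44 tested regions in ZNF175-ZNF331 and 5 and 0 of 20 in ZNF565-ZNF573. They were 5 and 1 of 34 in ZNF264-ZNF446, 3 and 0 of 15 in ZNF414-ZNF846 and 3 and 2 of 23 in ZNF575-ZNF180. In ZNF653-ZNF791 they were 2 and 4 of 28, in ZNF101-ZNF254 0 and 2 of 23 and in ZNF628-ZNF835 0 and 7 of 17. In ZNF554-ZNF77 they were 0 and 1 of 5, in ZNF302-ZNF792 0 and 1 of 6 and outside clusters 1 and 4 of 18. Over all protein-coding starts 10.4% of regions rose and 27.2% fell. In ZNF628-ZNF835 the median of the lead regions was thus above 0 while every call was a fall, and several of those calls were at side regions. By fold enrichment ZNF414-ZNF846, ZNF101-ZNF254, ZNF302-ZNF792 and ZNF628-ZNF835 did not lie above the median of all genes, and neither did ZNF653-ZNF791 and ZNF302-ZNF792 among peaks alone or by tags. Members outside clusters lay below it by rank of -log10 p, among peaks alone (-0.84 against -0.46) and by tags on both scales (-0.44 and -0.41 against -0.30 and -0.28).

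In ZNF565-ZNF573 most lead regions lay above 0 by rank of -log10 p, while most were not called. Called higher were 4 of 17 with NaPr and 3 of 16 with NaBu, beside 1.73% and 8.95% of all lead regions. Ranked by fold enrichment, 0 were called in either experiment. Of the 17 with NaPr 16 lay above 0 and all 17 above the all-gene median, and of 16 with NaBu 15 lay above 0 and all 16 above the all-gene median. By fold enrichment those counts were 9 and 14 of 17 with NaPr, and 11 and 12 of 16 with NaBu, and by tags scaled to background 9 of 16 lay above 0 with NaBu. The median rank over the cluster was 95, 94.8 and 94.5 in the untreated and 97.1, 96.6 and 97.1 in the treated NaPr libraries. No p-value was computed over a cluster. Members of a cluster are neighbours, some share a promoter region, and they are not replicates.

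By the sample labels the doses differed, 10 mM NaPr and 1 mM NaBu, so the 2 experiments are set side by side and not compared. By gene and over any promoter region, ZNF529, ZNF790, ZNF345, ZNF875, ZNF226, ZNF432, ZNF808, ZNF331 and ZNF274 rose in both, which is 39.1% of the 23 genes that rose with NaPr and 34.6% of the 26 that rose with NaBu. Over all protein-coding genes the shares were 57.7% of 633 and 14.0% of 2605. ZNF628, ZNF865 and ZNF580 fell in both, 75.0% of 4 and 15.0% of 20, beside 70.8% of 2093 and 23.4% of 6346 over all genes. ZNF878 rose with NaPr and fell with NaBu, in different regions. Of 189 members with a lead region in both, 74 (39.2%) lay above 0 in both and 36 (19%) below 0 in both, 55 above 0 with NaPr alone and 24 with NaBu alone. Over 15402 genes 20.5% lay above 0 in both and 47.6% below 0 in both.

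A region near the top of the ranking can rise little, so the lead regions were also grouped by mean rank, a description added after the data had been seen. With NaPr, 34.8% of the 23 member lead regions below rank 80 lay above 0, 65.9% of 41 between 80 and 90, 76.8% of 69 between 90 and 95 and 67.2% of 58 above 95. The same shares over all genes were 30.9, 27.5, 35.9 and 45.3%. With NaBu they were 61.9, 57.1, 59.5 and 44.1% for members and 32.9, 28.7, 37.7 and 47.3% for all genes, so that in the highest group the members lay no higher than other genes.

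**Figure D5:**
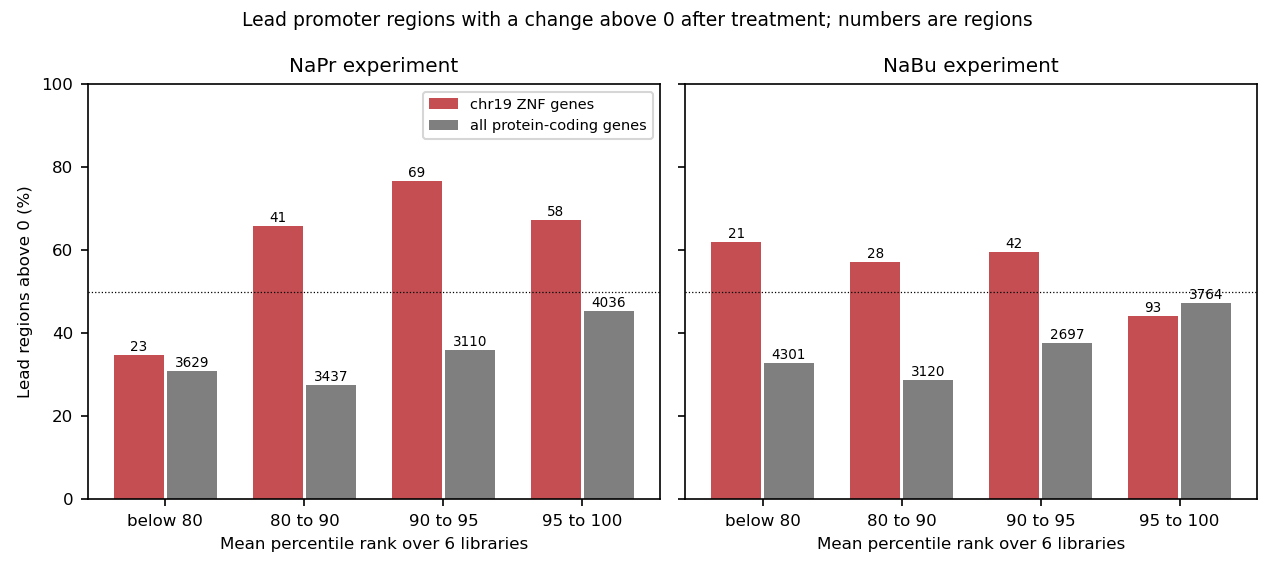
Share of lead promoter regions with a change above 0 (%), by mean percentile rank over the 6 libraries, for members (red) and all protein-coding genes (grey), with the number of regions above each bar; the dotted line marks 50%. With NaPr the members exceed all genes in each group, for example 76.8 against 35.9% between 90 and 95, and with NaBu they exceed them below rank 95.

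The last exon, which encodes the fingers, was rarely open. A peak over the last exon of the canonical transcript, over 1 kb from every protein-coding start, was found in 2 to 16 members a library (0.833 to 6.67%), against 8.47 to 11.3% of all genes, 7.63 to 14.8% of ZNF genes elsewhere and 10.6 to 14.5% of other chromosome 19 genes. Over the 12 libraries 28 members (11.7%) had one at least once, against 20.2% of all genes, although the median last exon of a member was longer, 3350 bp against 1400 bp. Peaks covered 1.7 to 11.6 bases per kb of member last exon and 18.1 to 21.4 per kb over all genes. The lower counts lay in the NaBu experiment, whose lists began at a higher -log10 p, and the part of that limit in the counts was not tested.

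The letters GAGAAACC, which encode part of the linker between fingers, stood in 192 of 240 member last exons (80.0%), with a median of 5 copies and at most 30, and in 62 of 1236 last exons (5.02%) of other chromosome 19 genes. Repeated sequence can lose reads in alignment. Words of 50 bases that recur on the chromosome made up 4.81% of member last exons and 3.07% of the others, 3.05% in the 28 members with a peak and 5.05% in the 212 without. The printed stretches below come from the ZNF283 and ZNF285 last exons and are shown for this repeat, with GAGAAACC in capitals.
ZNF283 last exon, chr19:43847993-43848244, plus strand: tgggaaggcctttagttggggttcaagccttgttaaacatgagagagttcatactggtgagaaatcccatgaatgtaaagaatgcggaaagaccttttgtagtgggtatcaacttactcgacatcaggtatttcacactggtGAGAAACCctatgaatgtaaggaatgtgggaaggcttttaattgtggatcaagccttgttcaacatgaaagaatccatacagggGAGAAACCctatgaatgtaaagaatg
ZNF285 last exon, chr19:44386491-44386742, minus strand: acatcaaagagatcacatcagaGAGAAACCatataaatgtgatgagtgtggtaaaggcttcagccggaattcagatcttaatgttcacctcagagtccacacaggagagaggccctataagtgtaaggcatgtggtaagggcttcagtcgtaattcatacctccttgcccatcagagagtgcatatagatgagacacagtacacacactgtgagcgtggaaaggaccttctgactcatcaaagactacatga
In ZNF283 the capitals stand 84 bases apart, the spacing at which finger units repeat.

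ZNF565 was the member with a last-exon peak in all 12 libraries, at ranks from 97.4 to 99.3 in the NaPr and from 97.5 to 99.1 in the NaBu experiment. ZNF607 had one in 10 libraries, ZNF285 in 9, ZNF404 and ZNF582 in 8, and 11 members in 1 library each. ZNF285 and ZNF582 had no promoter peak in any library, so their last-exon peaks were listed without one at the start. Of 20 last-exon regions tested in the 2 experiments, 16 held the linker letters, 8 were coding sequence from end to end and 0 held the start of any annotated gene. ZNF565, ZNF607, ZNF404, ZNF285 and ZNF582 were tested in both experiments and are counted in each.

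In the NaPr experiment 15 last-exon regions of members were tested and 1 was called, against 8.3% of 2627 such regions over all genes. It was that of ZNF283, chr19:43847211-43848497, with ranks of 75.7, 68.0 and 65.7 in untreated and 45.7, 52.4 and 49.7 in treated libraries. The groups did not overlap and the change was -20.56 (SE 5.25, adjusted p = 0.0432). Its fold enrichment went from 10.5, 8.05 and 9.6 to 5.16, 6.16 and 7.23. The call was lost without any one of the 6 libraries, where limma called 0 member regions and 2 to 6 had an unadjusted p under 0.05, against 4 with all 6.

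In the NaBu experiment 5 were tested and 2 rose, 40.0% against 17.5% of the 2512 such regions over all genes. Of those 2512 regions 34.8% were called in either direction. ZNF285, chr19:44385892-44386995, had no peak in untreated libraries and ranks of 43.4, 41.0 and 55.9 in treated ones (change 46.76, SE 6.17, adjusted p = 0.00153), with fold enrichments of 7.51, 7.51 and 9.87. ZNF607, chr19:37698768-37699630, had ranks of 32.8, 0 and 0 in untreated and 47.3, 54.2 and 56.2 in treated libraries (change 41.65, SE 9.5, adjusted p = 0.0119). With NaPr the last exon of ZNF607 went from 62.2, 52.2 and 42.2 to 72.9, 69.5 and 63.9 (change 16.56, SE 6.08, adjusted p = 0.121), and that of ZNF285 changed by 1.87 (SE 7.75, adjusted p = 0.925). A rank of 0 stands for a peak below the list's limit, so the size of a change from 0 is set by that limit.

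The genes of the repression pathway that KRAB proteins recruit were read from the same fits. Of 25 such genes 0 rose and 1 fell with NaPr, with a median change of -0.68, and 1 rose and 3 fell with NaBu, with a median of -0.28, beside -0.76 and -0.83 over all genes. Over all lead regions 1.73% rose and 8.44% fell with NaPr, and 8.95% rose and 23.2% fell with NaBu, and the pathway counts did not exceed these shares. The promoter of SUV39H1, an H3K9 methyltransferase, fell with NaPr from a mean rank of 95.7 to 92.5 (change -3.28, SE 0.801, adjusted p = 0.0379). With NaBu CHD3, the NuRD helicase that TRIM28 binds, rose from 69.6 to 85.1 (change 15.44, SE 2.46, adjusted p = 0.00306). TRIM28 itself fell from 99.7 to 98.5 with NaBu (change -1.22, SE 0.354, adjusted p = 0.0303) and changed by -0.03 with NaPr (adjusted p = 0.985). PPHLN1, a subunit of the HUSH complex, fell by 7.38 (adjusted p = 0.00643), and EHMT1, an H3K9 methyltransferase, fell by 8.87 (adjusted p = 0.00894). SETDB1 changed by 0.14 with NaPr and -1.23 with NaBu, neither called.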

How the data were processed

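Chromatin accessibility was profiled by ATAC-seq in 12 SW480 libraries, 3 per group in 2 experiments with their own dates and untreated libraries. The 8 mouse libraries of the series were not used here. Per the labels and the study's methods, the authors demultiplexed with bcl2fastq 2.17.1, trimmed with cutadapt 1.9.1, aligned with Bowtie2 2.3.1 to hg38 and called peaks per library with MACS2 2.1.0. The deposited peak lists hold for each summit a fold enrichment (ratio), a -log10 p and a -log10 q from the peak caller, and none holds more than 300000 lines. Reads were not analysed here, so the study's own read-count test was not run.

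Peaks of the 6 libraries of an experiment that overlapped by at least 1 bp were merged. Regions found in at least 2 libraries were ranked within each library by highest -log10 p, with no peak at 0, and tested with limma 3.58.1 in R 4.3.3 (lmFit, eBayes with trend, two-sided, no covariate), with Benjamini-Hochberg adjustment over all regions. Summit tags were recovered from the deposited fold and -log10 p, and scaled as alternatives with a pseudocount of 1 tag. The tag scales covered only regions with a peak in all 6 libraries of an experiment. Python 3.11.15 with numpy 2.4.6, pandas 2.3.3, scipy 1.17.1 and matplotlib 3.10.9 was used for the rest. The procedure was run on simulated data with noise below the typical spread between these libraries and a peak in every region. That run does not measure its error in these data. The members and all gene lists were chosen with earlier results of these data known. Named genes were, per experiment, the 8 largest rises and 8 largest falls among called lead regions. The 6 largest rises and falls among called last-exon regions and 16 members with published roles were named too. So were, in each cluster, the highest and lowest of the members with a lead region in both experiments. Other called members were named after their values were seen. Regions can lie at several genes: 14 with NaPr and 13 with NaBu belonged to 2 or more members, and 39 in each experiment also to a gene that is no member. A marker of the fixed lists is not reported here. Intervals identical between 2 libraries of the same group made up at most 0.796% of the shorter list, and other pairs were not compared.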

Additional observations from a re-analysis of the deposited data

How the results depend on the processing

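At member promoters with NaPr, 25 regions were called. Other settings gave 3 ranked by fold, 11 with no filter on the number of libraries, 3 by tags scaled to background and 58 by tags scaled to the median, and leaving out 1 library gave 0 to 5. With NaBu, where 48 were called, they gave 21 by fold, 78 by tags scaled to background and 81 scaled to the median, and leaving out 1 library gave 30 to 48. At last exons, 1 region was called with NaPr, against 0 with no filter, 3 with a peak in all 6 libraries, 3 within the top 50000 intervals, 0 among peaks alone, 3 and 5 by tags scaled to background and to the median, 2 over all coding last exons and 0 to 0 without 1 library. The 2 called with NaBu became 0 within the top 50000 and 2 to 3 without 1 library. They became 0 with a peak in all 6 libraries and 0 by tags on either scale. Those settings hold only regions with a peak in all 6 libraries. ZNF285 had none in untreated libraries and ZNF607 lacked one in some, so both were left out by that rule and not tested. Ranked by fold, the changes of ZNF91 with NaPr (-0.02), ZNF331 with NaBu (-1.63) and ZNF274 with NaBu (-0.11) reversed. The causes were not tested. Among single regions and lists, alternatives left 412 NaPr values as they were, made 97 lose the call, 11 gain it and 31 move, and the NaBu counts were 557, 55, 15 and 41.

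Replicate numbers paired the libraries weakly at most. Deviations of same-numbered libraries correlated at 0.0114, 0.0113 and 0.0436 with NaPr and 0.0232, 0.00693 and 0.0132 with NaBu. Those of different-numbered libraries correlated at -0.0318 to 0.018 with NaPr and -0.0223 to 0.00999 with NaBu, most of them below 0. With the replicate number as a block, limma called 1 member promoter region and 0 last-exon regions with NaPr, where 73 and 3 had an unadjusted p under 0.05, and 44 and 2 with NaBu. The lists give peaks above a limit, which differed between libraries, so a region without a peak may hold reads.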
